A study of Mus musculus with 786 samples.

Results

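The 10 genes described here belong to the transforming growth factor beta (TGF-beta) pathway: the ligand Tgfb1, the receptors Tgfbr1 and Tgfbr2, the Smad genes Smad2, Smad3, Smad4 and Smad7, and the nuclear repressors Ski, Skil and Tgif1. They were found by gene symbol in the deposited tables, where all 10 members stood among 21664 genes of the single-cell tables and 18855 genes of the bulk table. Skil was chosen on values of these data, so its levels are given as a description with no test, and the other 9 were chosen as its pathway. The study profiled early blood-forming cells from the bone marrow of C57BL/6 mice aged 6 to 8 weeks, with no engineered allele named. The gate for haematopoietic stem cells (HSC) was CD34-, CD48-, CD135- and CD150+, and that for multipotent precursors 1 (MPP1) differed from it in taking CD34+ cells. Single cells were caught in plates of 96 wells and amplified by Smart-seq: HSC plates 1, 2 and 3 and MPP1 plates 1 and 2 are labelled normal replicates, and 1 plate each of HSC and MPP1 came from bled mice. The growth note on both bled plates and on HSC plate 3 names bled and normal mice alike, and plate 3 also carried an RNA spike-in. The 18 bulk populations were sorted by other marker sets, with 1000 cells and 1 library each, and were amplified by another protocol. The label of the bulk HSC library gives the marker CD34+, the same marker set as the bulk MPP1 label.

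TGF-beta ligands bind the type II receptor Tgfbr2, which recruits and activates the type I receptor Tgfbr1. The activated receptor phosphorylates Smad2 and Smad3, which join Smad4 and enter the nucleus, where Ski, Skil and Tgif1 can repress their target genes. Smad7 blocks the receptor step, and Smad7 and Skil are themselves known targets of the pathway, which is known for holding stem cells of the bone marrow in a resting state.

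Wells are labelled with the number of cells they held. Of 460 wells labelled with 1 cell, 373 had at least 1000 genes at FPKM 1 (a fragment count corrected for transcript length and library size) and were used, 48 to 73 per plate; the shallowest cell kept had 1004 genes and the deepest one left out had 961. The 150 wells labelled with no cell were the background, measured the same way but kept without a minimum of genes. Median genes per plate were 1969 to 3046.5 with 1 cell and 147.5 to 841 with none, and 20 of the no-cell wells reached 1000 genes. Depth in reads is unknown. The 9 HSC markers (such as Procr and Hlf) each reached 5% of cells on at least 1 plate. Their summed mean FPKM was 636 to 931 on the 3 HSC plates and 426 to 583 on the normal MPP1 plates. In no-cell wells the sum was 472, 192 and 2345 on the HSC plates and 300 and 120 on the MPP1 plates. On HSC plate 3 the background therefore exceeded the cells, at 636. None of 5 neutrophil markers reached 5% of cells on any plate. Markers of every other cell type listed did. These were 1 of 4 measured B and plasma markers, 2 of 4 T and NK, 1 of 4 macrophage and 1 of 3 mast and basophil markers. The same held for 4 of 4 megakaryocyte, 2 of 4 measured erythroid and 1 of 4 endothelial and stromal markers.

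The upstream sequences of both receptor genes are shown because the 2 receptors act as 1 complex, and Tgfbr1 was above HSC plates 1 and 2 on both MPP1 plates while Tgfbr2 was not. They are the 250 bases before a transcript start in RefSeq, build GRCm38.p6, read 5′ to 3′ on the gene's own strand, and the expression values were made with mm9. Capitals mark GC boxes (GGGCGG or CCGCCC) and Smad boxes (CAGAC or GTCTG), so both strands were searched, and the marked motifs do not overlap.
Tgfbr1, chr4:47352972-47353221, plus strand: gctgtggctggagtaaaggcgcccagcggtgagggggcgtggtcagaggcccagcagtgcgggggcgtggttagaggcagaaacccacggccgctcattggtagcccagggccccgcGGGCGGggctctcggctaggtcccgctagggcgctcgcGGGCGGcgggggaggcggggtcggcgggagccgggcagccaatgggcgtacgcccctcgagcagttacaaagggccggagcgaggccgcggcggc
Tgfbr2, chr9:116175364-116175613, minus strand: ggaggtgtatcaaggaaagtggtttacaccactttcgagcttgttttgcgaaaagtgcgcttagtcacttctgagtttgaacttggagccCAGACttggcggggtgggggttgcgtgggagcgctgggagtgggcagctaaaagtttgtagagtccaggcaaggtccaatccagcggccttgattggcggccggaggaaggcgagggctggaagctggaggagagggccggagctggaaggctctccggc
This Tgfbr1 window held 2 GC boxes and no Smad box, with 74.8% G and C. A second RefSeq window of Tgfbr1, chr4:47385966-47386215 and not printed, held no GC box and 1 Smad box, with 52.8% G and C, so a contrast with Tgfbr2 depends on the window. The Tgfbr2 window held no GC box and 1 Smad box, with 58.4% G and C. Of 32851 windows of the same length, 32.7% held a GC box and 42.2% a Smad box, and their median G and C content was 52.4%. Such matches describe the letters and are not shown to be bound. Windows for 6 of the 10 members were used. Tgif1 stands under different transcripts in the single-cell and bulk tables, while the other 9 stand under the same ones.

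The first question was which members the single cells held. Skil, a repressor that binds the Smad complex, was the member found in the most cells on every plate, and the ligand gene Tgfb1 the one found in the fewest, level with Tgfbr1 on the bled MPP1 plate. Skil reached FPKM 1 in 50.9% to 88.2% of cells, whereas the highest share of Tgfb1 on any plate was 10% of cells, on the bled MPP1 plate. The median cell held 2 or 3 of the 10 members on every plate, beside plate medians of 1969 to 3046.5 of all 21664 genes. Of the 373 cells, 30 held no member. Both receptors reached FPKM 1 in 9 of 373 cells, and both receptors together with Smad4 in 1 cell. These joint counts are a description, with no such count for other genes set beside them.

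Tgfb1, the ligand, had a mean of FPKM 0.00411 on HSC plate 1, 0.0239 on plate 2 and 0.364 on plate 3. It had a mean of 1.69 and 1.23 on MPP1 plates 1 and 2, and was listed at 0 in all 48 cells of the bled HSC plate, which allows a share of up to 6.25% (3 of 48 cells). The MPP1 means rest on single cells, since 1 cell carried 99.3% of the sum on plate 1 and 92.9% on plate 2. Tgfb1 stayed under the filter for testing, a mean of FPKM 1 over the plates compared, and was not tested in any comparison.

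Tgfbr1, the type I receptor, was found in 8% and 9.43% of cells on HSC plates 1 and 2 and in 21.6% and 18.8% on MPP1 plates 1 and 2. Its mean was FPKM 0.407 and 1.51 on those HSC plates against 6.35 and 8.30 on the MPP1 plates. HSC plate 3 lay between them, at 12.3% of cells and a mean of 5.26. The cell with the highest value carried 38.8% to 84% of a plate's sum. Without it the means were 0.210 and 0.247 on HSC plates 1 and 2, 1.70 on HSC plate 3, and 1.62 and 5.19 on the MPP1 plates, so that HSC plate 3 then lay above MPP1 plate 1. No-cell wells held Tgfbr1 in 0% to 9.09% of wells per plate.

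Tgfbr2, the type II receptor, was found in 12%, 15.1% and 15.1% of cells on the 3 HSC plates and in 13.7% and 8.33% on the MPP1 plates. Its mean was FPKM 4.74, 10.7 and 8.79 on the HSC plates against 3.27 and 7.40 on the MPP1 plates, so the groups overlapped. On MPP1 plate 2 a single cell carried 91.5% of the sum.

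Smad2 and Smad3, the receptor-activated Smads, were found in 11% to 36% and in 10% to 28% of cells per plate, both highest on the bled MPP1 plate. Smad4, their common partner, was found in 18.8% to 36% of cells, again highest on the bled MPP1 plate. Shares on normal MPP1 and HSC plates overlapped for Smad2, Smad3 and Smad4, and their plate means overlapped too. In Smad3, 2 shares were at or below the background: on HSC plate 1 it stood in 10% of cells and 23.8% of no-cell wells, and on HSC plate 3 in 17.8% of cells and 18.2% of no-cell wells. These 2 shares are read as background. On the bled HSC plate the no-cell mean of Smad3, FPKM 13.3, exceeded that of cells, 11.9.

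Smad7, the inhibitory Smad, was found in 14%, 13.2% and 16.4% of cells on HSC plates 1, 2 and 3 and in 47.1% and 41.7% of cells on the MPP1 plates. Its mean was FPKM 0.887, 0.837 and 2.99 on the HSC plates and 10.2 and 7.28 on the MPP1 plates. Both MPP1 plates lay above all 3 HSC plates in share and in mean. No-cell wells held Smad7 in 4.76%, 0% and 9.09% of wells on the HSC plates and in 14.3% and 38.5% on the MPP1 plates, so the share in the background was higher on the MPP1 plates as well. The no-cell means were FPKM 0.322, 0 and 14.1 on the HSC plates and 7.43 and 5.79 on the MPP1 plates. The 14.1 on HSC plate 3 came from 1 well and exceeded the mean of that plate's cells. On MPP1 plate 2 the 95% interval of the cells' share (exact Clopper-Pearson, counting error only, like every interval here) ran from 27.6% to 56.8% and took in the share of the no-cell wells.

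Ski, the closest relative of Skil, was found in 12%, 18.9% and 30.1% of cells on the HSC plates and in 27.5% and 20.8% on the MPP1 plates. Its mean was FPKM 2.69, 4.37 and 8.58 against 3.23 and 2.66, so the levels overlapped, and HSC plate 3 was the highest normal plate. No-cell wells held Ski in 9.52%, 8.33% and 0% of wells on the HSC plates and in 10.7% and 15.4% on the MPP1 plates. On HSC plate 1 and MPP1 plate 2 the cells' intervals, 4.53% to 24.3% and 10.5% to 35.0%, took in these shares. On MPP1 plate 1 the no-cell mean was 19.2, above the cells, and 2.66 without 1 well that carried 86.6% of the sum. Tgif1, a homeodomain repressor, was found in 8.22% to 28.3% of cells with means between FPKM 4.94 and 42.2, and both extremes of the mean lay on the MPP1 plates. On HSC plate 1 its 14% of cells lay below 23.8% of no-cell wells and is read as background. The cells' intervals took in the no-cell share for other members too. These were Tgfbr1 on HSC plate 3 (5.80% to 22.1% against 9.09%) and Smad2 on MPP1 plate 2 (8.95% to 32.6% against 15.4%). The same held for Tgfbr2 on HSC plate 1 and the bled MPP1 plate, and for Smad3 and Tgif1 on the bled HSC plate. It held for Smad7 on HSC plate 3 as well.

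**Figure D1:**
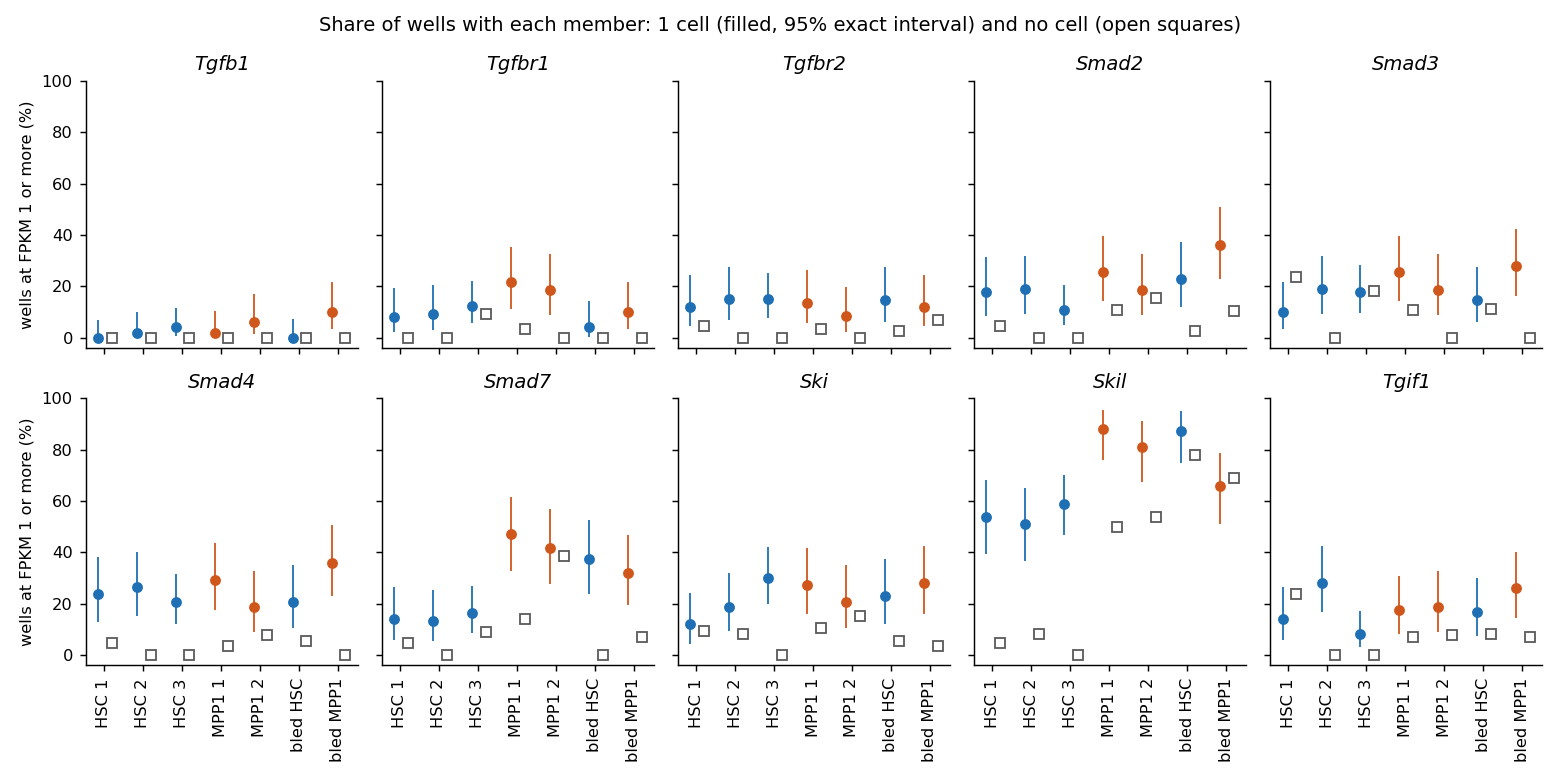
Share of wells in percent (vertical axis) in which each member reached FPKM 1, by plate (horizontal axis): filled points are wells with 1 cell, blue for HSC and orange for MPP1, with 95% exact binomial intervals, and open squares are wells with no cell. Skil and Smad7 stand higher on the MPP1 and bled HSC plates than on the 3 HSC plates, and the open squares of Skil reach 77.8% on the bled HSC plate.

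Skil values in single cells ran from 0 to FPKM 256 with a median of 1.98 on HSC plate 1, from 0 to 150 with a median of 1.46 on plate 2 and from 0 to 322 with a median of 8.40 on plate 3. They ran from 0 to 788 with a median of 63.7 on MPP1 plate 1 and from 0 to 663 with a median of 42.9 on plate 2. The bled HSC plate ran from 0 to 1222 with a median of 102, and the bled MPP1 plate from 0 to 723 with a median of 20.1. Cells of each plate therefore overlapped those of every other, while both normal MPP1 medians lay above all 3 HSC medians.

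The mean of Skil was FPKM 18.3, 11.2 and 41.1 on HSC plates 1, 2 and 3, 111 and 85.3 on the MPP1 plates, and on the plates from bled mice 214 (HSC) and 95.4 (MPP1). The MPP1 mean over its 2 plates was 6.65 times that of HSC plates 1 and 2 (98.1 ± 18.1 against 14.7 ± 4.98, SD, n = 2 plates each). Skil had 10.8% to 28% of a plate's sum in the highest cell, the least among the members on every plate but HSC plate 2. There Tgif1 had 24.0% and Skil 25.3%. Skil reached FPKM 1 in 54% (95% interval 39.3% to 68.2%), 50.9% (36.8% to 64.9%) and 58.9% (46.8% to 70.3%) of cells on the HSC plates. It did so in 88.2% (76.1% to 95.6%) and 81.3% (67.4% to 91.1%) of cells on the MPP1 plates, in 87.5% (74.8% to 95.3%) of bled HSC and in 66% (51.2% to 78.8%) of bled MPP1.

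Wells labelled with no cell held Skil too, in higher shares on the MPP1 and bled plates than on the 3 HSC plates. It reached FPKM 1 in 1 of 21, 1 of 12 and 0 of 11 no-cell wells on HSC plates 1, 2 and 3. On the MPP1 plates it did so in 14 of 28 and 7 of 13 no-cell wells, and on the plates from bled mice in 28 of 36 (HSC) and 20 of 29 (MPP1). In percent these shares are 4.76, 8.33 and 0 for HSC, 50 and 53.8 for MPP1, 77.8 for bled HSC and 69 for bled MPP1. The MPP1 plates exceeded HSC plates 1 and 2 by 45.4 percentage points in no-cell wells and by 32.3 in cells.

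On the bled HSC plate 17 of 21664 genes, Skil included, were found in as many no-cell wells or more. The count was 35 on the bled MPP1 plate, 129 on MPP1 plate 1 and 101 on MPP1 plate 2, but 6129 and 1862 on HSC plates 1 and 2, and all genes on HSC plate 3, where Skil was in no such well. In cells the counts were 328 on the bled HSC plate, 1120 for bled MPP1, 240 and 446 for MPP1, and 947, 1504 and 540 for HSC. No-cell wells hold fewer genes than cells, so ranks in the 2 kinds of well are not compared.

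The level of Skil in no-cell wells was close to that in cells on the bled HSC plate, with a mean of FPKM 177 against 214 and a median of 91.5 against 102. Median genes on that plate were 400.5 in no-cell wells and 2443 in cells. On the bled MPP1 plate the mean was 40.6 in no-cell wells against 95.4 in cells, and the share of cells, 66%, lay below that of no-cell wells, so at this threshold it is read as background. At FPKM 5 the shares on that plate were 66% of cells and 51.7% of no-cell wells, and the medians were 20.1 and 5.09, so this reading turns on the threshold. On MPP1 plate 1 the mean was 19.3 against 111, and on MPP1 plate 2 it was 714 because of 1 no-cell well at FPKM 9102, without which it was 15.5. On HSC plates 1, 2 and 3 the means were 0.151, 0.127 and 0.

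Leaving out no-cell wells with 1000 or more genes, a check chosen after the data were seen, Skil stood in 45.5% and 33.3% of the rest on the MPP1 plates, 77.8% for bled HSC and 65.4% for bled MPP1. The part of this background in the difference between cells was not tested. Wells with 2 or more cells held Skil in 8 of 16, 1 of 2 and 4 of 5 wells on the HSC plates, 13 of 13 and 12 of 15 on the MPP1 plates, 7 of 7 for bled HSC and 4 of 4 for bled MPP1.

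**Figure D2:**
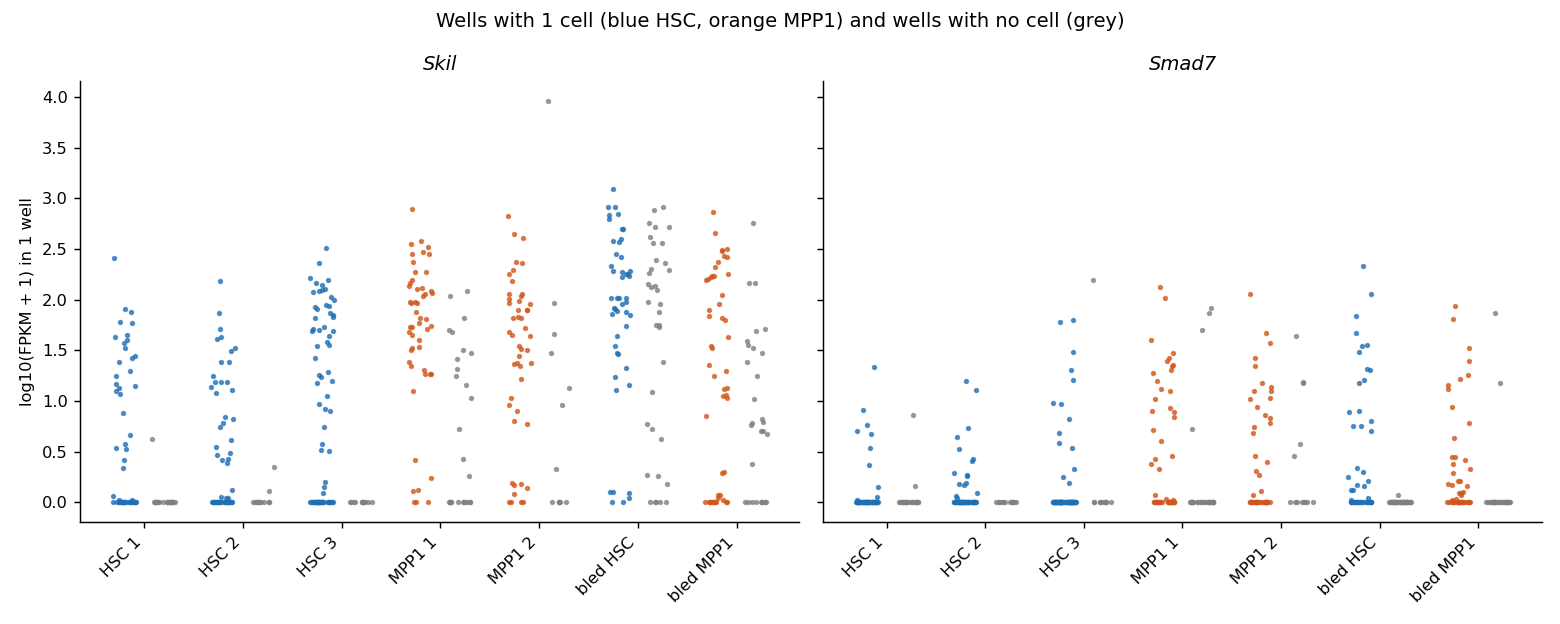
Value of Skil (left) and Smad7 (right) in each well, as log10(FPKM + 1) on the vertical axis, by plate; blue and orange points are wells with 1 HSC or 1 MPP1 cell and grey points are wells with no cell. The grey points of Skil overlap the cells on the bled HSC plate, and 1 grey point on MPP1 plate 2 stands at FPKM 9102.

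The next comparison set MPP1 against HSC over plates 1 and 2 of each, with the plate as the replicate. Skil, Smad7 and Tgfbr1 were the members with both MPP1 plate means above both HSC plate means, and no tested member passed the test adjusted over all genes. Differences are of log2(mean FPKM + 1) per plate, fitted with limma in the 9833 genes whose mean reached FPKM 1, with Benjamini-Hochberg adjustment. Of the 8 members other than Skil that passed this filter, 0 were called at an adjusted p under 0.05, against 1 gene or 0.0102% of all genes tested. Since 667 genes had an unadjusted p under 0.05 and only 1 passed the adjustment, this design called few genes of any kind.

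Smad7 was 2.37 ± 0.93 (SE) higher in MPP1 on the log2 scale (limma, unadjusted p = 0.0235, adjusted p = 0.667). The mean level was 0.862 ± 0.0353 on HSC plates against 8.74 ± 2.07 on MPP1 plates (SD, n = 2 each). In no-cell wells of the same plates Smad7 was 2.72 higher for MPP1 on the log2 scale. The part of this background in the difference between cells was not tested for Smad7. Tgfbr1 was 2.14 ± 0.95 higher (limma, unadjusted p = 0.0414, adjusted p = 0.721), with means of 0.959 ± 0.782 and 7.33 ± 1.38. Neither difference holds up against the spread between plates once adjusted over all genes. Skil, by description, differed by 2.68 ± 0.55 in the same direction.

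The HSC means of Smad7 and Tgfbr1 lie under FPKM 1, so both passed the filter through the MPP1 plates alone, and the counts that hold them are a description from which nothing is read. Without the filter the unadjusted p was 0.0384 for Smad7 and 0.0625 for Tgfbr1 (limma, adjusted p = 0.813 for both). With the filter, 2.56% of all genes had an unadjusted p under 0.05 and a higher level in MPP1, among them these 2. Leaving Skil out, both MPP1 means lay above both HSC means in 2 of 8 members, beside 15.8% of all genes tested, and below them in 0 of 8, beside 19.9%. For shares of cells, 3 of the same 8 members (Tgfbr1, Smad7 and Ski) had both MPP1 plates above both HSC plates, beside 20.5%, and 0 had them below, beside 15.6%. Tgfb1, too low for the test of levels, was also above, at 1.96% and 6.25% against 0% and 1.89%. With 2 plates against 2, an exact permutation test (two-sided) cannot give a p below 0.333, so no difference in share can pass 0.05.

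The other 6 tested members showed differences within their error. Smad2 differed by 0.59 ± 0.65, Smad3 by 0.41 ± 0.81, Ski by -0.18 ± 0.93, Tgfbr2 by -0.45 ± 0.88, Smad4 by -0.51 ± 0.84 and Tgif1 by -0.61 ± 0.84 on the log2 scale. The sign of Tgfbr2, Smad3, Smad4, Ski and Tgif1 turned under at least 1 other setting. The median of the 8 tested members was 0.12 and that of all genes -0.04.

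Summed means of some other gene groups in cells separated the same plates. The summed mean FPKM of 16 immediate early genes (stress- and signal-induced genes such as Fos and Egr1) was 1215 to 1522 on the 3 HSC plates and 1852 and 2585 on the MPP1 plates, and all 16 were measured. In no-cell wells the sums were 1214 to 1750 on the HSC plates and 2975 and 3025 on the MPP1 plates. The 4 megakaryocyte markers summed to 71.5 to 73.0 on the HSC plates and 255 and 192 on the MPP1 plates, and the 4 T and NK markers to 37.2 to 44.0 and 176 and 76.8. The megakaryocyte sums in no-cell wells were 2.79, 79.0 and 13.5 on the HSC plates and 283 and 13.4 on the MPP1 plates. They exceeded those of cells on HSC plate 2 and MPP1 plate 1. The T and NK sums in no-cell wells were 0.704, 0 and 34.0 against 18.2 and 55.8. Of these markers, 4 of 4 and 2 of 4 reached 5% of cells on at least 1 plate, and none was listed at 0 on all plates. The part of these genes in the differences of Skil, Smad7 and Tgfbr1 was not tested.

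**Figure D3:**
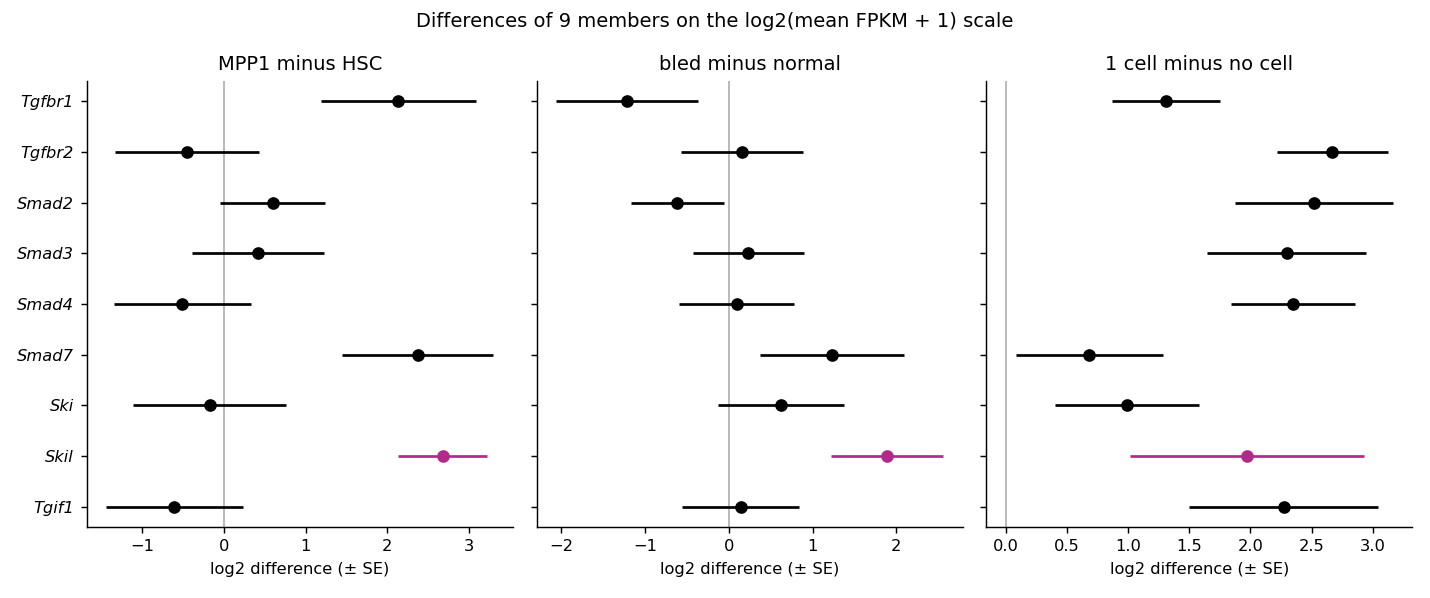
Difference of 9 members on the log2(mean FPKM + 1) scale (horizontal axes, points with SE) for MPP1 minus HSC, bled minus normal and wells with 1 cell minus wells with no cell; Skil, in purple, is shown as a description. Smad7, Skil and Tgfbr1 stand furthest from 0 between MPP1 and HSC, and all 9 members lie above 0 when wells with a cell are set against wells without.

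Bled and normal plates were compared next, over the 4 normal plates and the 2 bled ones, with cell type as a covariate and with 1 bled plate for each type. Skil and Smad7 were higher on the bled HSC plate than on the normal HSC plates and did not stand higher on the bled MPP1 plate. No member passed the test: 0 of the 8 other than Skil were called, against 0% of 10017 genes tested. The limma test called 0 genes after adjustment and 586 at an unadjusted p under 0.05. The normal plates are the ones used in the comparison of MPP1 with HSC, so the 2 comparisons share them. The bled plates stand in a separate table from the normal ones, so table and bleeding cannot be told apart.

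Skil, by description, had a mean of FPKM 214 on the bled HSC plate, 14.5 times that of HSC plates 1 and 2 at 18.3 and 11.2. HSC plate 3 stood at 41.1, and the bled HSC plate was 5.22 times that plate and 9.12 times the mean of the 3 HSC plates. On the bled MPP1 plate it was 95.4, within the normal MPP1 plates at 111 and 85.3. The no-cell wells differed as well, since Skil stood in 77.8% of them on the bled HSC plate and in 4.76% and 8.33% on HSC plates 1 and 2. The part of that background in the difference was not tested.

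Smad7 had a mean of FPKM 13.4 on the bled HSC plate, 15.6 times that of HSC plates 1 and 2, 4.49 times that of HSC plate 3 and 8.55 times that of all 3, and stood in 37.5% of cells (95% interval 24.0% to 52.6%). It was listed at or near 0 in the 36 no-cell wells of that plate, none of which reached FPKM 1, which allows a share of up to 8.33% (3 of 36 wells). On the bled MPP1 plate it was 5.82, below both normal MPP1 plates, and stood in 32% of cells. Averaged over both cell types the difference was 1.23 ± 0.86 on the log2 scale (limma, adjusted p = 0.892). A term for the difference of the bled effect between MPP1 and HSC, chosen after these opposite shifts were seen, gave -3.45 ± 1.34 (limma, adjusted p = 0.954). Only the normal plates supply its spread, and the lone bled plates are assumed to vary like them.

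Tgfbr1 was lower on the bled MPP1 plate than on the normal ones. Its mean was FPKM 0.95 on the bled HSC plate, between HSC plates 1 and 2, and 0.483 on the bled MPP1 plate against 6.35 and 8.30 on the normal MPP1 plates. The averaged difference was -1.21 ± 0.85 (limma, adjusted p = 0.892). The remaining tested members differed by -0.62 to 0.62 on the log2 scale, with adjusted p from 0.926 to 0.994.

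At 1 log2 unit or more from both normal plates of its type, the bled HSC plate was higher for 1 of the 8 members other than Skil, Smad7, beside 8.8% of all genes, and lower for 0, beside 11.5%. The bled MPP1 plate was higher for 0 of 8, beside 9.54%, and lower for 1, Tgfbr1, beside 6.23%. The median difference of the 8 tested members was 0.15 and that of all genes 0.01. The immediate early genes summed to 2335 on the plate of bled HSC and to 1947 on that of bled MPP1.

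Wells with 1 cell were then set against wells with no cell over all 7 plates, with the plate as a block, to show which members exceeded the background. Tgfbr1, Tgfbr2, Smad2, Smad3, Smad4 and Tgif1 were higher with a cell, while Smad7 and Ski did not pass. These 6 of 8 members other than Skil compare with 71.3% of the 9391 genes tested, so the members' share was near that of all genes. Tgfbr2 was 2.67 ± 0.45 higher (limma, adjusted p = 0.000259), Smad2 2.52 ± 0.65 (adjusted p = 0.00323) and Smad4 2.35 ± 0.51 (adjusted p = 0.00115). Smad3 was 2.30 ± 0.65 higher (adjusted p = 0.00603), Tgif1 2.27 ± 0.77 (adjusted p = 0.0155) and Tgfbr1 1.31 ± 0.44 (adjusted p = 0.0154).

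The calls of Tgfbr1 and Tgif1 did not hold under every alternative. Without MPP1 plate 2 Tgfbr1 differed by 0.99 with an adjusted p of 0.0508, and Tgif1 had an adjusted p of 0.0604 without HSC plate 2 and 0.0535 without HSC plate 3 (limma). Smad7 differed by 0.68 ± 0.60 (limma, adjusted p = 0.298) and Ski by 0.99 ± 0.59 (adjusted p = 0.134). With the mean taken over cells of log2(FPKM + 1), both passed, Smad7 at an adjusted p of 0.00466 and Ski at 0.00349 (limma). Over the alternatives the adjusted p ran from 0.00466 to 0.80 for Smad7 and from 0.00349 to 0.372 for Ski, which also passed at 0.0165 without MPP1 plate 1. Skil, by description, was 1.97 ± 0.96 higher with a cell. The median of all genes was 1.86 and that of the 8 tested members 2.28.

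Beyond the members, 61 other genes of the pathway stood in 5 lists, of ligands, receptors, Smads, regulators and targets, and 60 of them were measured. None of the 38 that passed the filter was called between MPP1 and HSC or between bled and normal plates, and 24 of 38 were called as higher in wells with a cell, where 71.3% of all genes were. Genes could pass that last filter through the cell wells alone, so the count of 24 is a description. In MPP1 against HSC, 3 of 38 had an unadjusted p under 0.05 in the higher direction, beside 2.56% of all genes, and 0 in the lower. These were the repressor Tgif2 (2.49 ± 0.96, adjusted p = 0.667), the target Klf10 (1.16 ± 0.49, adjusted p = 0.699) and the cell cycle inhibitor Cdkn1a (2.30 ± 1.00, adjusted p = 0.721), by limma. HSC plate 3 stood at a mean of FPKM 12.6 for Tgif2, above both MPP1 plates at 11.6 and 5.11. For Cdkn1a that plate stood at 6.25, between the MPP1 plates at 16.2 and 4.55. For Klf10 it stood at 66.8, below both MPP1 plates at 91.5 and 80.7. On HSC plates 1 and 2 Tgif2 stood at 0.746 and 0.395, so it passed the filter through the MPP1 plates alone. Its test and the count of 3 that holds it are a description from which nothing is read. Klf10, an early TGF-beta target, stood in 44% and 50.9% of cells on HSC plates 1 and 2 and in 76.5% and 81.2% on the MPP1 plates. Its shares in no-cell wells were 19% and 8.33% against 28.6% and 15.4%.

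By list, 11 of 15 tested regulators and 10 of 13 tested targets were higher in MPP1 in sign, 2 of 4 ligands, 1 of 4 receptors and 2 of 2 further Smads. The median of the 38 genes was 0.30, and that of all genes -0.04. The medians were 0.33 for regulators, 0.63 for targets, -0.11 for ligands, -0.10 for receptors and 0.21 for Smads. The counts by sign have no share of all genes beside them and are a description. All 20 regulators summed to a mean FPKM of 211 and 180 in cells of the MPP1 plates and 280 and 452 in their no-cell wells. On HSC plates 1 and 2 they summed to 139 and 197 against 87.9 and 0.635. All 16 targets summed to 527 and 582 against 405 and 271 on the MPP1 plates. On HSC plates 1 and 2 the targets summed to 419 and 321 against 730 and 28.7.

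Between bled and normal plates, 4 of 38 had an unadjusted p under 0.05 and were higher, against 3.39% of all genes. The 3 with the smallest p were Id1, a BMP and TGF-beta target (4.11 ± 1.08, limma, adjusted p = 0.611), Cdkn1a (2.69 ± 0.88, adjusted p = 0.797) and the ligand Bmp4 (2.50 ± 0.84, adjusted p = 0.797). Id1 stood in 47.9% of bled HSC and 44% of bled MPP1 cells, against 10% and 1.89% on HSC plates 1 and 2 and 11.8% and 0% on the MPP1 plates. No-cell wells of the bled plates held Id1 in 2.78% and 6.90%. Bmp4 stood in only 4.17% and 4% of cells on the bled plates. Its mean was at most FPKM 0.140 on the 4 normal plates, so it passed the filter through the bled plates alone. The test of Bmp4 and the count of 4 that holds it are a description from which nothing is read.

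Genes whose values across cells were most like those of Skil were sought among 2562 genes found in at least 20% of cells on every plate. The highest median Spearman correlations over the 7 plates were those of H3f3b, a gene for a replacement histone (0.38, from 0.13 to 0.67 by plate), Spry2, a signalling inhibitor (0.33, from 0.05 to 0.43), and Ctla2a (0.31, from 0.002 to 0.48). They were followed by the immediate early genes Egr1 (0.28, from -0.05 to 0.65) and Nr4a1 (0.27, from 0.08 to 0.47). These correlations are weak and describe cells that share a plate, 48 to 73 per plate. With the number of genes detected per cell, Skil correlated between -0.09 and 0.44 by plate. Among members, Smad7 had the highest median with Skil (0.19, from -0.08 to 0.36), and the medians of Tgfbr2, Smad2, Smad3 and Smad4 lay between -0.10 and 0.

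The 18 bulk populations gave the members' levels in later lineages, each in 1 library with no replicate check, so the order of neighbouring populations cannot be told from library spread. In such samples fewer cells of a type and less RNA per cell cannot be told apart. Skil was under FPKM 1 in 15 of them, and Tgfb1 reached FPKM 1 in 17. Skil reached FPKM 27.0 in GMP-11, a gate for granulocyte-macrophage progenitors, 3.04 in the CLP Sca1 high population of lymphoid progenitors and 1.51 in MKP, the megakaryocyte progenitors. Among the others were HSC at 0.0246 and MPP1 at 0.0216, while normal single cells had plate means from 11.2 to 111. The protocols of amplification differ between the 2 kinds of library, so the levels are set side by side and not compared.

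Tgfb1 reached FPKM 1 in 17 of 18 populations, with 131 in MKP, 125 in MPP1, 86.6 in GMP-7 and 70.7 in mature megakaryocytes. Its lowest level was 0.977 in HSC, followed by 2.34 in CLP. Its median over populations, 46.3, was the highest of the 10 members.

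The receptors were low. Tgfbr1 was highest in CLP at FPKM 9.63, next in MPP4 at 2.46 and preGM at 2.42, and reached FPKM 1 in 5 populations. Tgfbr2 was highest in CLP Sca1 high at 32.6 and MPP2 at 21.5, and also reached FPKM 1 in 5 populations. Only CLP Sca1 high and MPP3 had both receptors at FPKM 1, and in MPP3 they stood at 1.204 and 1.199.

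Among the Smads, Smad2 was highest in GMP-7 at FPKM 76.9, followed by MPP4 at 47.8 and PreCFU-E at 36.7, and was 22.4 in HSC. Smad3 was highest in CMP, the myeloid progenitors, at 42.0 and preMegE at 32.1. Smad4 was highest in CMP at 90.5, GMP-11 at 55.0 and CLP at 51.3. Smad7 was highest in CFU-E, erythroid progenitors, at 35.2 and next in MPP1 at 6.41, with 0.0310 in HSC. Smad2 and Smad3 were listed at 0 and Smad4 and Smad7 were under FPKM 0.1 in mature megakaryocytes, the library with the fewest genes at FPKM 1, 1642 where the others had up to 6080.

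The repressors had separate peaks. Ski was highest in GMP-7 at FPKM 141, ProEry at 69.6 and CMP at 68.7, and was listed at 0 in HSC. Ski was at 0.0951 in GMP-11, where Skil peaked, and above FPKM 1 in the next 2 populations of Skil, at 10.9 in CLP Sca1 high and 7.46 in MKP. Tgif1 was highest in MPP4 at 364 and MPP3 at 350, then in ProEry at 219 and HSC at 81.1, and lowest in preMegE at 0.292.

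Levels of 8 of the 10 members spanned at least 5 log2 units over the populations on the log2(FPKM + 1) scale, all but Tgfbr1 at 3.41 and Skil at 4.81. This compares with 36.8% of the 9685 genes that reached FPKM 1 in any population, and it is a count of libraries without replicates. Of 56 other pathway genes in the bulk table, 18 spanned as much. The widest were Strap, a receptor-binding inhibitor (FPKM 8015 in HSC), Fkbp1a, which holds the type I receptor silent (1362 in MPP4), and the coreceptor Tgfbr3 (1137 in MKP).

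Among 4663 genes with at least FPKM 5 in 3 or more populations, those most like Skil over the 18 populations were Ppm1e (Pearson r of log2(FPKM + 1) = 0.98), Ddx18 (0.88), Rnaset2b (0.78), Rnaset2a (0.77) and Isy1 (0.76). Without GMP-11 the values were 0.90, 0.49, 0.52, 0.52 and 0.25, so those other than that of Ppm1e rest largely on that library. Outside GMP-11, Skil was above FPKM 1 only in CLP Sca1 high at 3.04 and MKP at 1.51. The value of 0.90 for Ppm1e therefore rests on few low levels, with 1 library each. Rnaset2a and Rnaset2b are near-identical copies whose reads may be shared.

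**Figure D4:**
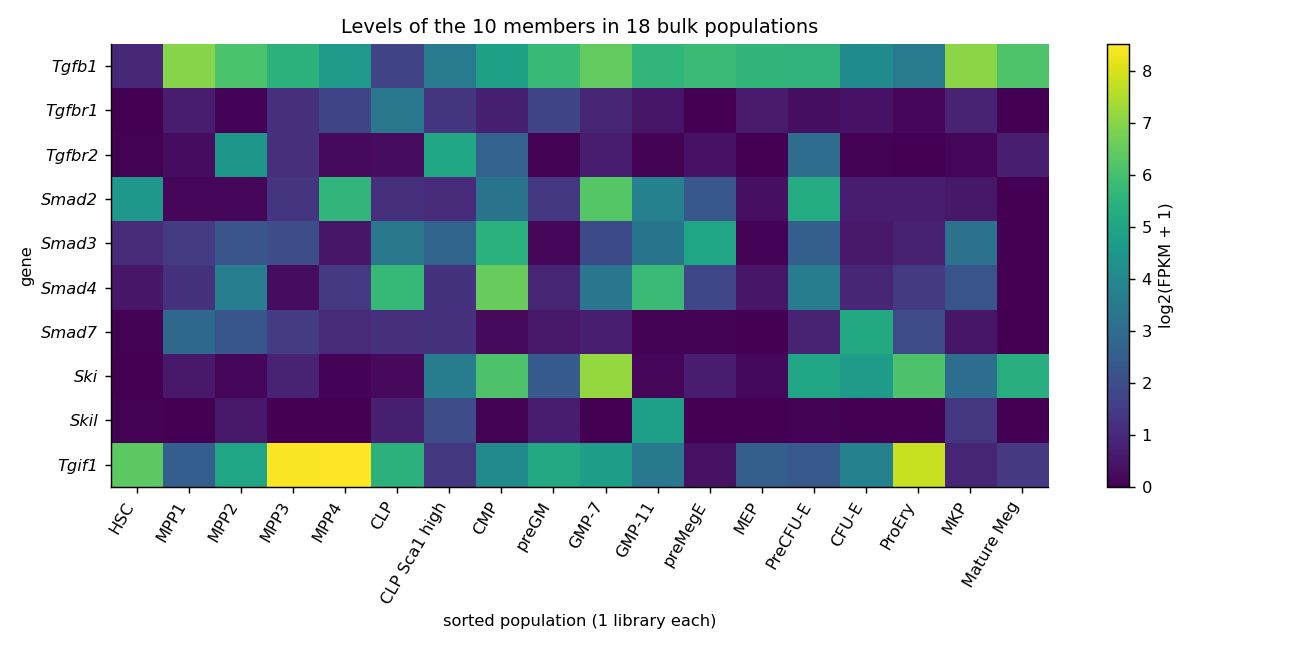
Level of each of the 10 members (rows) in each of the 18 bulk populations (columns, 1 library each), as log2(FPKM + 1) by colour. Tgfb1 is above FPKM 1 in every column but HSC, and the row of Skil is dark except in GMP-11, CLP Sca1 high and MKP.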

How the data were processed

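The authors deposited FPKM values for each gene and library. Per the submitters' processing notes, the tools were TopHat 1.3.3 and Cufflinks 1.2.1 on mm9, with Bowtie2 2.2.1 as well for HSC plate 3. Normal plates, bled plates and HSC plate 3 stand in separate tables. The columns of HSC plate 1 could hold either its first or its repeat run, and the 96 samples of the repeat were not analysed here as such.

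For each plate and gene, log2(mean FPKM + 1) over cells was fitted by limma 3.58.1 (R 4.3.3) with an intensity trend. Tests were two-sided and adjusted by Benjamini-Hochberg over all genes whose mean reached FPKM 1, with a threshold of 0.05, and this scale understates changes where levels are low. The comparisons were MPP1 with HSC on plates 1 and 2 of each, bled with normal on 6 plates with a term for cell type, and wells with and without a cell over 7 plates with the plate as a block. Plates are labelled biological replicates, but nothing says that they came from separate mice, so p-values measure the spread between plates. The scripts were tested on simulated data. Alternatives were another pseudocount, filter, cell minimum, detection threshold, averaging and scaling, a replicate block, HSC plate 3 as a normal plate, and leaving out each plate. The members and gene lists were chosen with earlier results of these data known. The text names all 10 members, up to 3 pathway genes per comparison by p, 3 by bulk range, and 5 genes most like Skil.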

Additional observations from a re-analysis of the deposited data

Results flagged for a closer look

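For some members the bled plates stood on opposite sides of the normal plates in the 2 cell types: the bled HSC plate lay beyond HSC plates 1 and 2 on 1 side and the bled MPP1 plate beyond both normal MPP1 plates on the other. For the share of cells with Skil the bled effect was 35 percentage points in HSC and -18.7 in MPP1, a difference of -53.8. This difference was not tested, and the share on the bled MPP1 plate is at the background of its no-cell wells. On the bled HSC plate Skil stood in 77.8% of no-cell wells, within the cells' 95% interval of 74.8% to 95.3%. On HSC plates 1 and 2 it stood in 4.76% and 8.33% of no-cell wells. For Smad7 the effect on the share was 23.9 points in HSC and -12.4 in MPP1, a difference of -36.3 that was not tested. On the log2 scale the mean level of Smad7 moved by 2.95 in HSC and -0.50 in MPP1, a difference of -3.45 (limma, adjusted p = 0.954). For the share of cells with Smad4 the effects were -4.37 points in HSC and 11.9 in MPP1, a difference of 16.3 that was not tested. HSC plate 3, at 20.5% of cells with Smad4, lay below the bled HSC plate at 20.8%, so this reversal does not hold with that plate among the normal ones. Each bled effect rests on 1 plate.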

How the results depend on the processing

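Between MPP1 and HSC the number of genes called, 1, was 0 without a filter, 6 with a filter at FPKM 5 or with wells scaled to the same total, 38 with the mean of log values, 2 with all wells labelled 1 cell, 58 with the replicate block and 0 to 0 when leaving out a plate. The plate numbers share no stated origin, and with 2 pairs the deviations of same-numbered plates correlated at 0.04, so the block is given here only. Between bled and normal plates the count, 0, was 6 with the mean of log values, 2 with all wells labelled 1 cell, and 0 to 1 when leaving out a plate (1 without MPP1 plate 2 or without the bled HSC plate). Wells with and without a cell gave 6698 calls, and 3966 with a filter at FPKM 5. Members with both MPP1 shares above both HSC shares, 5 of 10, were 5 to 8 when leaving out a plate (8 without HSC plate 2 or MPP1 plate 2). These counts include Skil, which was chosen on values of these data, and have no share of all genes beside them. With a plate left out the condition covers fewer plates and is easier to meet, so nothing is read from the rise to 8.

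Skil, Smad7, Tgfbr1 and Smad2 kept their sign between MPP1 and HSC under each alternative run, from 2.19 to 3.11, 1.2 to 3.18, 0.51 to 3.21 and 0.11 to 1.08. Others reversed. Leaving out a plate gave -0.97 to 0.061 for Tgfbr2, -0.60 to 1.43 for Smad3, -1.15 to 0.13 for Smad4, -0.45 to 0.092 for Ski and -2.04 to 0.82 for Tgif1. Smad3 was -0.15 with HSC plate 3 added, Smad4 1.53 in cells with 2000 genes, and Ski 0.21 with the mean of log values and 0.12 with scaled wells. Between bled and normal plates, leaving out a plate gave -2.48 to 0.053 for Tgfbr1, -0.29 to 0.61 for Tgfbr2, -0.20 to 0.67 for Smad3, -0.19 to 0.36 for Smad4, -0.50 to 2.95 for Smad7, -0.028 to 3.81 for Skil and -0.45 to 0.78 for Tgif1. Skil was -0.028 and Smad7 -0.50 without the bled HSC plate. Scaled wells gave -0.11 for Tgfbr2 and -0.22 for Smad4, the mean of log values 0.30 for Smad2, HSC plate 3 added -0.066 for Smad3, and all wells labelled 1 cell -0.20 for Tgif1. Shares of cells reversed for Tgfbr2 (0.76 points at FPKM 0.1, -5.21 to 0.18 leaving out a plate), Smad4 (6.37 in cells with 2000 genes, -6.46 to 4.20) and Tgif1 (-10.1 to 4.20). The cause was not tested for any of these. Read depth is unknown, and 2 plates a group limit every test.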
